A study of Mus musculus with 8 samples.

Results

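The Bcl2 family of apoptosis regulators was examined in common myeloid progenitors (CMPs) of young and old mice. The members were 10 genes chosen for their roles in this family, namely Bcl2, Bcl2l1, Mcl1, Bax, Bak1, Bcl2l11, Bbc3, Pmaip1, Bid and Bad, and every non-control probe that the array design assigned to one of these names was taken. This gave 14 probes among the 55681 probes and 10 genes among the 34797 gene names of the array. Bcl2l1, Mcl1, Bcl2l11 and Bad had 2 probes each, and the other 6 genes had a single probe. All 14 probes were well above background on all 8 arrays, so none was lost to the filter on dim probes.

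The proteins of this family decide whether the outer membrane of the mitochondria stays intact. The pro-survival members (Bcl2, Bcl-xL from Bcl2l1, and Mcl1) hold the effectors Bax and Bak in check. The BH3-only members sense stress and release or activate the effectors, which then open the membrane, let cytochrome c out and start the caspase cascade. In haematopoietic stem and progenitor cells Mcl1 is required for survival, Bcl2l1 for the survival of late erythroid cells and platelets, and Puma (Bbc3) and Noxa (Pmaip1) are induced by p53 after DNA damage, as is Bax.

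The study asked how the response of blood cells to DNA damage differs with age, and the arrays compared untreated CMPs of the ages. RNA came from the lineage-negative, Kit-positive, Sca-1-negative, CD34-positive, Fcγ receptor-low gate of C57BL/6J mice, aged 2 to 3 months in the young and 22 to 24 months in the old group per the sample labels (the series description gives other ranges). Each group had 4 arrays, young replicates 3, 4, 5 and 6 and old replicates 2, 3, 4 and 5, and no genotype or agent separated the groups. The methods speak of 3 mice per age and do not tie mice to arrays, so the p-values measure the spread between these arrays, which may in part be technical.

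Where a probe sits on a gene decides which transcripts it reads, so the probes of the 3 genes on which the results turn are shown, 5′ to 3′, with mm9 positions from the scanner files. The deposited files carry no exon annotation. The Bcl2 probe at chr1:108608970-108609029, minus strand, lies in coding sequence, and its capitals mark codons at the end of the BH1 domain, part of the groove that binds BH3 peptides. The dimmer Bcl2l1 probe at chr2:152655185-152655244, minus strand, reads coding sequence that the long, pro-survival form (Bcl-xL) holds and the short form (Bcl-xS) skips. The brighter Bcl2l1 probe at chr2:152606404-152606463, minus strand, begins 48721 bases further downstream, and the capitals in the 30 bases shown mark the letters of a polyadenylation signal. The brighter Bcl2l11 probe at chr2:127972893-127983988, plus strand, crosses an intron, and its capitals mark codons for the conserved glycine and aspartate of the BH3 core, the segment with which Bim (Bcl2l11) binds its partners. The dimmer Bcl2l11 probe at chr2:127954736-127955417, plus strand, also crosses an intron and was assigned by the array design to another transcript of the gene, and its first 30 bases are given.
Bcl2: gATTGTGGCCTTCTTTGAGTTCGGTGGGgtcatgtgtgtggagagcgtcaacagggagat
Bcl2l1, dimmer probe: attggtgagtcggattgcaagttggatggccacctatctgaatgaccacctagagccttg
Bcl2l1, brighter probe: gtgcagttcagtAATAAAtggtgtctgtga
Bcl2l11, brighter probe: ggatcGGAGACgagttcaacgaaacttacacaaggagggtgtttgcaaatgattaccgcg
Bcl2l11, dimmer probe: atctcagtgcaatggatcagttggagaatc

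Levels are given as log2 of the background-corrected intensity minus the 75th percentile of the same array, and differences are old minus young on this scale. The 75th percentile lay between 352 and 565 intensity units on the young and between 290 and 518 on the old arrays, and 55.6% to 63.2% of the young and 57.3% to 60.5% of the old arrays' probes were well above background. The arrays came from 2 slides with 2 arrays of each age on each, slide 1 holding young 3 and 4 with old 2 and 4. The gate's genes Kit, Cd34, Fcgr3 and Fcgr2b were above background on all arrays, and Il7r, which should be absent, on 1 young array. Ly6a, which encodes the Sca-1 that the gate excludes, was above background on all 8 arrays, with levels of -0.35, 0.03, 0.02 and -0.18 in young and -0.43, -0.90, -1.38 and -0.69 in old CMPs. Every old array was below every young array (difference -0.73, limma adjusted p = 0.414). The 4 Y-linked genes read (Uty, Ddx3y, Eif2s3y and Kdm5d) were above background on none, although the methods name mice of both sexes. The X-linked gene Xist was above background on all 8 arrays at both of its probes. Young replicate 3 was the highest array at a group of p53-induced genes that includes 3 members. It was chosen on these values, and values without it are therefore given beside the results they touch.

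No member passed the test for a difference between the ages. A probe was called when its limma p, adjusted by the Benjamini-Hochberg method over all 33479 tested probes, was under 0.05 and the groups differed at least 1.5-fold, and 0 of 10 members were called against 0.191% of all tested probes (64 probes, of which 53 were higher in old CMPs). The smallest adjusted p of a member probe by limma was 0.353. At an unadjusted p under 0.05 there were 2 of the 14 member probes, 1 of Bcl2l1 and 1 of Bcl2l11, beside 6.34% of all tested probes. The arrays of the ages did not overlap at 2 member probes, beside 4.44% of all tested probes.

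The members were evenly divided. Read at the brightest probe of each gene, 5 members were higher and 5 lower in old CMPs, with a median difference of 0.02, beside -0.01 over all tested genes. The pro-survival members had a median of 0.21 (2 higher, 1 lower), the effectors 0.11 (2 higher) and the BH3-only members -0.31 (1 higher, 4 lower). Without young replicate 3 the BH3-only median was -0.03 (2 higher, 3 lower), and it was -0.16 without old replicate 4. The pro-survival median was 0.05 without old replicate 2, and the effector median -0.01 without young replicate 4 and 0.04 without old replicate 2. These are descriptions of few genes. The 95% confidence intervals at the brightest probes reached from 2.68-fold lower to 1.87-fold higher in old CMPs, the lower end at Pmaip1 and the upper at Bcl2l1, so differences of sizes within these bounds stay unresolved with 4 arrays per age. The largest difference at a brightest probe was 0.47 in size, which 13.3% of all tested genes equalled or passed.

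**Figure D1:**
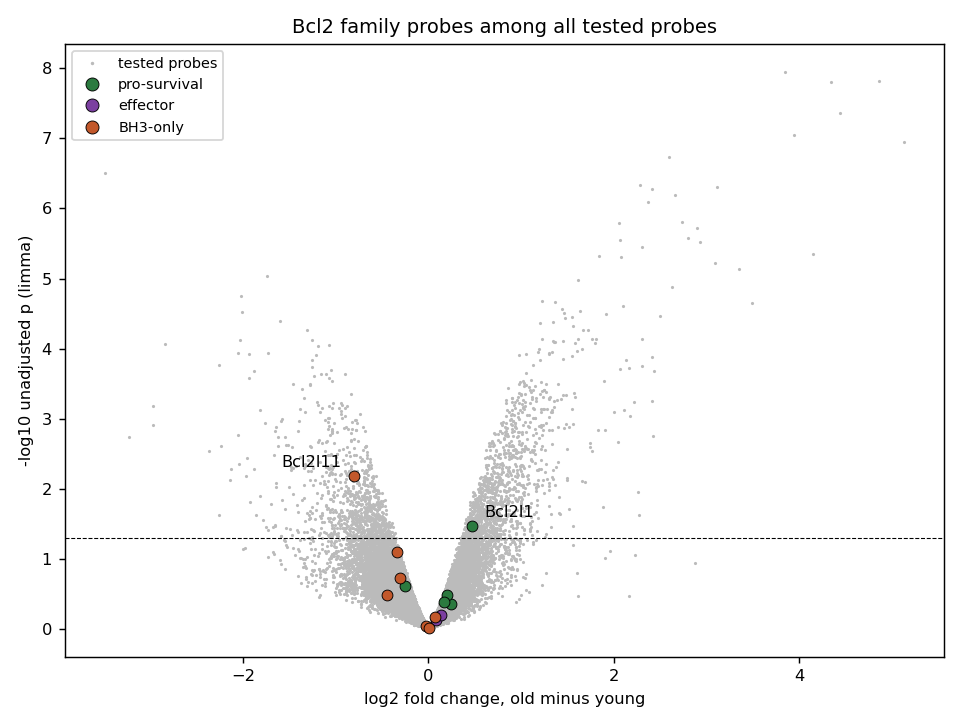
Each grey point is a tested probe, placed by its log2 fold change (old minus young) on the x axis and by -log10 of its unadjusted limma p on the y axis, and coloured points are the 14 probes of the Bcl2 family members by role. A Bcl2l1 probe (0.47) and a Bcl2l11 probe (-0.80) are the members above the dashed line, which marks an unadjusted p of 0.05, and both sit among many other probes.

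Bcl2l1, which encodes the pro-survival protein Bcl-xL, was the member with the smallest p at its brightest probe. Its levels were 4.41, 4.67, 4.88 and 5.05 on young replicates 3, 4, 5 and 6 and 5.42, 5.23, 5.18 and 5.07 on old replicates 2, 3, 4 and 5. Every old array was above every young array, though old 5 and young 6 were nearly level. The mean of the young arrays was 4.75 ± 0.28 (SD, n = 4) and that of the old arrays 5.22 ± 0.15 (SD, n = 4). The difference was 0.47 with a standard error of 0.19, or 1.39-fold (95% interval 1.03 to 1.87), with a limma p of 0.0344 that became 0.695 after adjustment over all probes. The exact permutation test of the 4 against 4 arrays, two-sided, gave 0.0286, the smallest p these 8 arrays allow. Any probe without overlap has this p, so it is no separate evidence. The difference was 0.76 on slide 1 and 0.18 on slide 2, and 0.36 without young replicate 3 (a limma p of 0.0874, adjusted p = 0.969).

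The second Bcl2l1 probe, in the coding stretch that only the long form carries, gave a smaller difference. Its levels were -1.01, -1.07, -0.53 and -0.94 on the young arrays and -1.41, -0.86, -0.33 and 0.04 on the old arrays, in the order of replicates above. The groups overlapped, with old replicate 2 below all young arrays and old 4 and 5 above them. The difference of 0.25 had a 95% interval from -0.43 to 0.93, which holds the value of the brighter probe. The difference between the probes was not tested.

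Bcl2, the founding pro-survival member, had levels of 3.23, 2.56, 2.88 and 2.80 in young and 2.37, 2.65, 2.86 and 2.60 in old CMPs. The groups overlapped, and the highest value was that of young replicate 3. The difference was -0.25 (95% interval -0.70 to 0.20; limma adjusted p = 0.998), and -0.13 without young replicate 3. On slides 1 and 2 it was -0.28 and -0.22.

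Mcl1, a short-lived pro-survival protein, was read by 2 probes on chromosome 3. At the brighter probe (chr3:95466855-95466914, plus strand) the levels were 4.47, 4.46, 4.29 and 4.60 in young and 5.12, 4.63, 4.47 and 4.42 in old CMPs. The ages overlapped apart from old replicate 2, which was above all other arrays. The difference of 0.21 (95% interval -0.24 to 0.65) became 0.05 without old replicate 2. The dimmer probe (chr3:95465543-95465602) showed the same array on top, with 2.63, 2.81, 2.14 and 2.62 in young and 3.06, 2.63, 2.61 and 2.60 in old CMPs and a difference of 0.17.

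**Figure D2:**
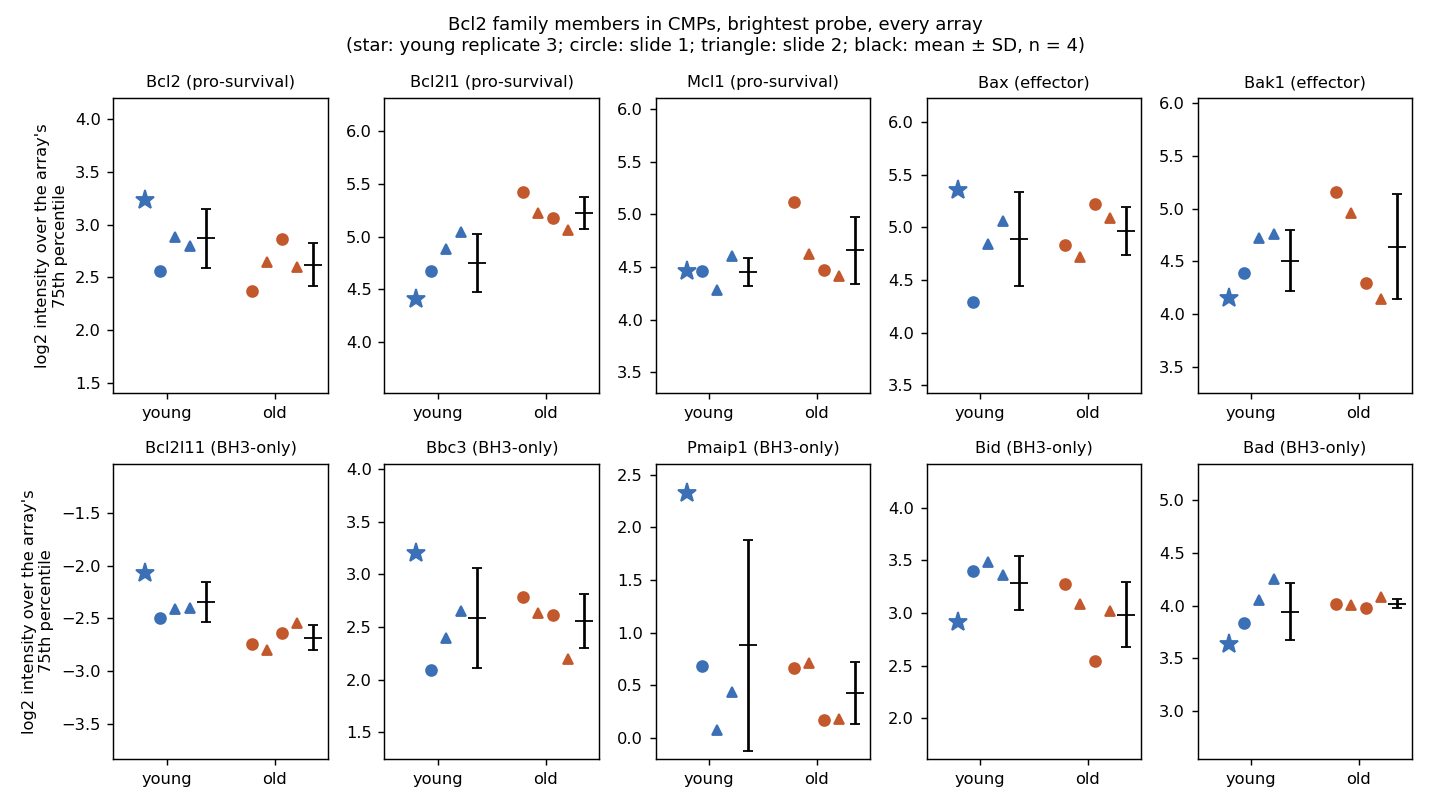
Each panel shows 1 member at its brightest probe, with log2 intensity over the array's 75th percentile on the y axis (each axis spans the same range) and the ages on the x axis. Points are arrays in the order of their replicate numbers (star, young replicate 3; circles, slide 1; triangles, slide 2), and black bars are the mean ± SD of 4 arrays. The ages separate at Bcl2l1 and Bcl2l11, and young replicate 3 tops Pmaip1, at 2.33, and Bbc3, at 3.21.

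The effectors showed no difference that exceeded the spread between arrays. Bax, which p53 induces, was read at chr7:52717122-52717181 (minus strand) with levels of 5.36, 4.29, 4.84 and 5.06 in young and 4.83, 4.72, 5.22 and 5.09 in old CMPs. Young CMPs held both the highest and the lowest array, and the difference was 0.08 (95% interval -0.47 to 0.63), or 0.23 without young replicate 3. Bak1, at chr17:27156807-27156866 (minus strand), had levels of 4.15, 4.39, 4.72 and 4.76 in young and 5.16, 4.96, 4.30 and 4.14 in old CMPs. The old arrays lay at both ends of its range. The difference of 0.13 (95% interval -0.47 to 0.74) was 0.46 on slide 1 and -0.19 on slide 2, and 0.01 without young replicate 3.

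Bcl2l11, which encodes Bim, a BH3-only protein that binds all pro-survival members, was lower in old CMPs at both probes. At the brighter probe, which spans the BH3 core shown above, the levels were -2.07, -2.50, -2.41 and -2.40 on the young and -2.74, -2.80, -2.64 and -2.54 on the old arrays. Every old array was below every young array, by a small margin between old 5 and young 4. The difference was -0.34 with a standard error of 0.17 (95% interval -0.72 to 0.05), with a limma p of 0.0792 and an adjusted p of 0.899. The exact two-sided permutation p of 0.0286 follows from the lack of overlap and is no separate evidence. The difference was -0.41 and -0.27 on slides 1 and 2, and -0.24 without young replicate 3 (a limma p of 0.181).

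The dimmer Bcl2l11 probe, assigned to the other transcript, had the largest difference of the 14 probes. Its levels were -2.35, -2.99, -2.68 and -2.37 in young and -3.64, -3.54, -2.89 and -3.52 in old CMPs. Old replicate 4 lay within the young range and the other 3 old arrays lay below it. The difference was -0.80 with a standard error of 0.23 (95% interval -1.32 to -0.28), or 1.74-fold lower in old CMPs, with a limma p of 0.0066 and an adjusted p of 0.353. The exact two-sided permutation p was 0.0571. It was -0.60 on slide 1, -1.00 on slide 2 and -0.72 without young replicate 3.

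**Figure D3:**
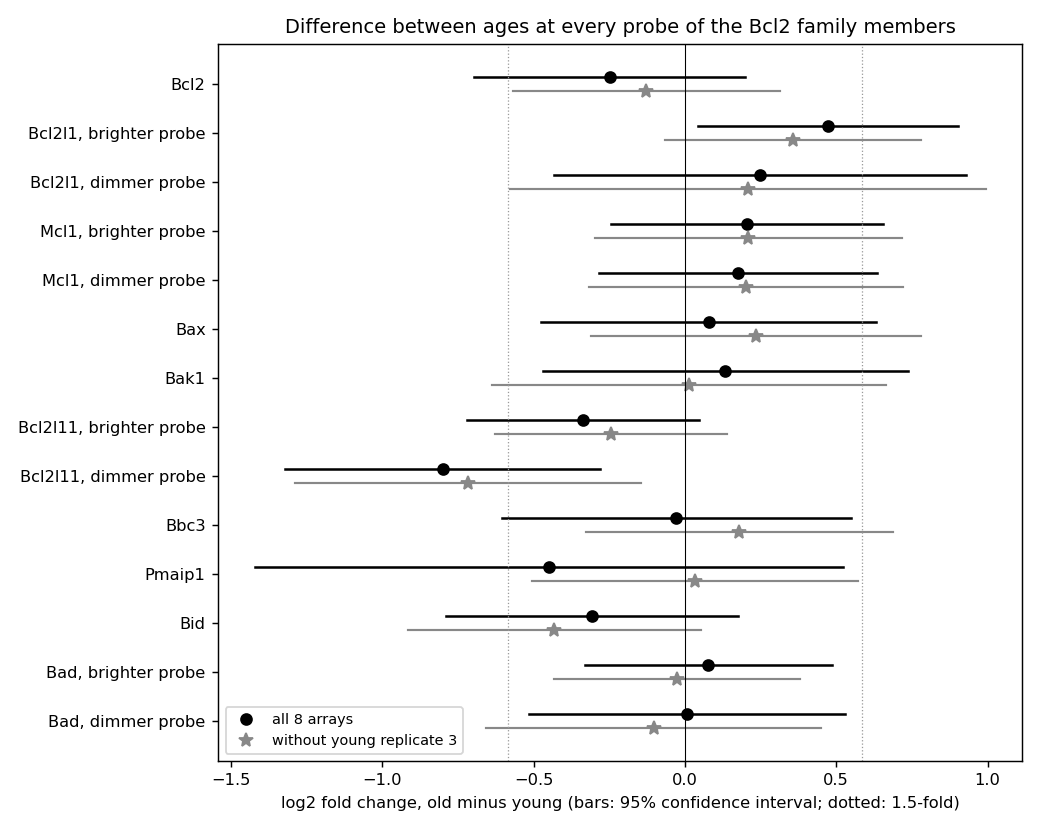
The x axis gives the log2 fold change, old minus young, for each of the 14 probes, with bars for the 95% confidence interval; black circles use all 8 arrays and grey stars leave out young replicate 3, and dotted lines mark 1.5-fold. With all arrays, the intervals of the brighter Bcl2l1 probe (0.04 to 0.90) and the dimmer Bcl2l11 probe (-1.32 to -0.28) exclude 0, and without young replicate 3 only that of the Bcl2l11 probe does.

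Bid, a BH3-only protein that caspase 8 cleaves and so links death receptors to mitochondria, was read at chr6:120843464-120843523 (minus strand). Its levels were 2.91, 3.40, 3.48 and 3.36 in young and 3.27, 3.09, 2.55 and 3.02 in old CMPs. The groups overlapped because young replicate 3 lay among the old arrays. The difference was -0.31 (95% interval -0.79 to 0.18; limma adjusted p = 0.998), and -0.43 without young replicate 3 (a limma p of 0.0751, adjusted p = 0.934).

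Bad, a BH3-only protein that survival kinases phosphorylate and inactivate, was nearly level. At its brighter probe (chr19:7026323-7026382, plus strand) the levels were 3.63, 3.83, 4.05 and 4.26 in young and 4.02, 4.00, 3.98 and 4.08 in old CMPs. The old arrays all lay inside the young range. The difference was 0.08 (95% interval -0.33 to 0.49), and 0.01 at the dimmer probe, which ranged from 0.16 to 1.03 in young and from 0.38 to 0.71 in old CMPs. Without young replicate 3 these were -0.03 and -0.10.

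Among the BH3-only genes that p53 induces, Pmaip1 had the widest spread within an age of the 14 probes, with an SD of 0.999 over the 4 young arrays. Pmaip1, on chromosome 18, had levels of 2.33, 0.68, 0.07 and 0.44 in young and 0.66, 0.71, 0.17 and 0.18 in old CMPs. Young replicate 3 was far above the 7 other arrays, which overlapped. The difference was -0.45 (95% interval -1.42 to 0.52), and 0.03 (95% interval -0.50 to 0.57) without that array. Bbc3, at chr7:16903403-16903462 (plus strand), had levels of 3.21, 2.09, 2.39 and 2.66 in young and 2.79, 2.63, 2.62 and 2.19 in old CMPs. Here too young replicate 3 was the highest array, and the difference went from -0.03 (95% interval -0.61 to 0.55) to 0.18 (95% interval -0.33 to 0.69) without it.

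Young replicate 3 was the highest of the 8 arrays at 5 of the 10 members (Bcl2, Bax, Bcl2l11, Bbc3 and Pmaip1), beside 13.6% of all tested genes. Over the 8 arrays that share of all tested genes ran from 5.69% (old 3) to 17.5% (old 2). The list of Trp53 and its known targets showed the same array on top at 7 of 15 tested genes. These were Btg2, Ccng1, Fas, Gadd45a, Mdm2, Tnfrsf10b and Trp53inp1. The lead was slight at Ccng1 (2.260 against 2.256 on old 5) and at Tnfrsf10b (0.689 against 0.676 on old 4). Against the mean of the other young arrays, young replicate 3 was higher by 1.93 at Pmaip1, 0.83 at Bbc3 and 0.63 at Bax. The corresponding difference was 1.72 at Fas, a death receptor, 1.60 at Trp53inp1, 1.34 at Btg2, an antiproliferative gene, 1.31 at Gadd45a and 0.91 at Mdm2, the ubiquitin ligase that limits p53. It was 0.12 at Cdkn1a, which encodes the cell cycle inhibitor p21, 0.00 at Sesn2 and -1.00 at Trp53 itself. At Trp53, however, young replicates 3 and 4 were level (0.370 and 0.372), with young 5 and 6 at 2.04 and 1.69. The pattern thus covered a portion of the list. On the same array Hba-a1, an alpha globin, was at 2.21, against -1.11 to -2.46 on the other young arrays, and 63.2% of its probes were well above background, the highest share of the 8. What set this array apart was not tested.

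**Figure D4:**
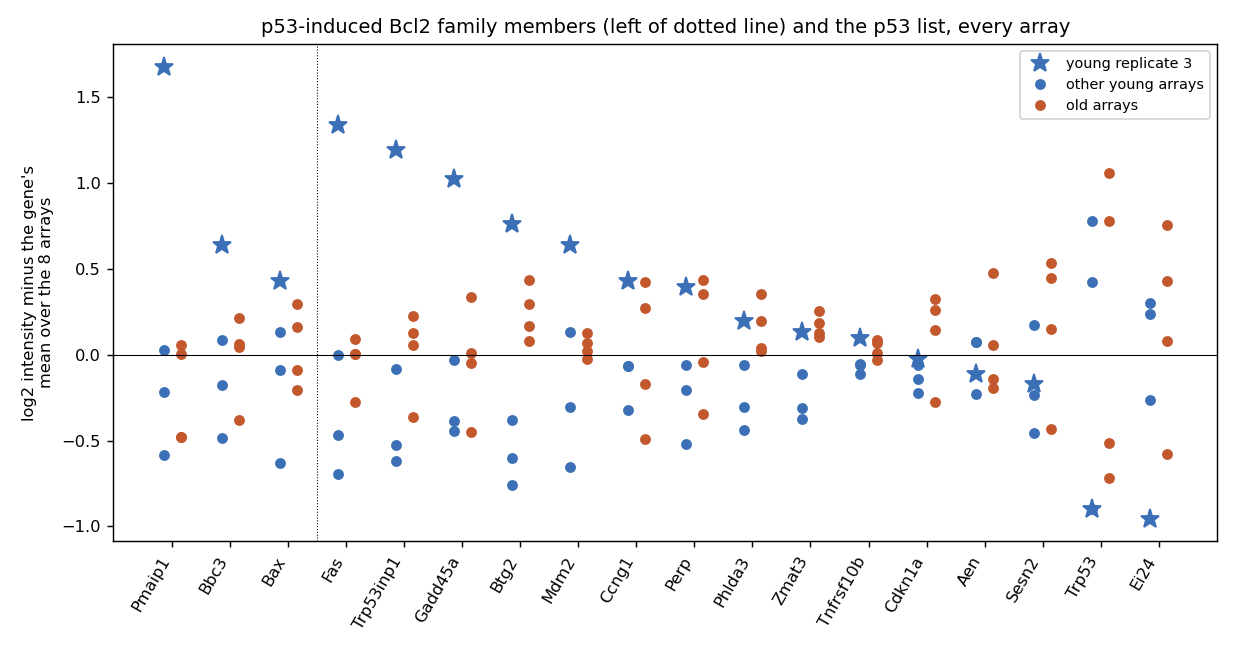
The y axis gives each array's log2 intensity minus the gene's mean over the 8 arrays, and the x axis the p53-induced members Pmaip1, Bbc3 and Bax, left of the dotted line, followed by the 15 tested genes of the p53 list. Stars are young replicate 3, blue points the other young arrays and orange points the old arrays. The star is on top at the 3 members and at 7 of the 15 list genes. It is at the bottom at Ei24 and, level with young replicate 4, at Trp53.

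The p53 list itself was mostly higher in old CMPs without passing the test. Of 15 tested genes 13 were higher and 2 lower, with a median difference of 0.20 beside -0.01 over all tested genes, and by limma 0 were called and 0 had an unadjusted p under 0.05. Leaving out young replicate 3, an alternative chosen after the data were seen, all 15 were higher, with a median of 0.32. That array was picked for its high values at genes of this list, 7 of which it topped. Leaving it out raises the differences at those genes by construction, so the counts without it are no separate evidence. By limma 0 were then called and 2 had an unadjusted p under 0.05, beside 6.02% of all tested probes in that fit. These were Btg2 (0.82, adjusted p = 0.239) and Zmat3 (0.43, adjusted p = 0.717). With all arrays Btg2 differed by 0.49 and Zmat3, an RNA-binding protein gene, by 0.33. Among the members that p53 induces, none of Bax, Bbc3 and Pmaip1 had an interval that excluded 0 with or without that array.

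Of the other genes of the family, 14 were on the array under the names searched, 12 were tested and by limma 0 were called. The differences were above 0 at 8 and below 0 at 4, with a median of 0.12. Hrk and Bcl2l10 were above background on no array. By limma 4 of the 12 had an unadjusted p under 0.05, beside 6.34% of all tested probes. The levels of Bcl2l14 were -0.81, -0.66, -0.35 and -0.39 in young and -1.13, -1.63, -1.19 and -1.06 in old CMPs, so that all old arrays were below all young arrays. Its difference was -0.70 with a standard error of 0.20 (a limma p of 0.0060, adjusted p = 0.340). At a dimmer Bcl2l14 probe the ages overlapped, with a difference of -0.68 (a limma p of 0.0629, adjusted p = 0.843). The ages also did not overlap at Bcl2a1d, Bok and Bcl2l13, beside 4.44% of all tested probes. Of the A1 genes, Bcl2a1a and Bcl2a1b were not on the array under these names. The A1 copies read differed by -0.76 at Bcl2a1c (limma adjusted p = 0.508) and by -0.76 at Bcl2a1d (limma adjusted p = 0.522). These genes are near-identical copies, so their probes may share transcripts and count as uncertain. Bok, a relative of Bax and Bak, differed by 0.55 (limma adjusted p = 0.634). Without young replicate 3 the differences were -0.79 at Bcl2l14, -0.98 at Bcl2a1c, -0.90 at Bcl2a1d and 0.44 at Bok.

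Downstream of the mitochondria, the genes of the apoptosome, the caspases and their inhibitors were close to level. All 20 were tested, 11 were higher and 9 lower in old CMPs, and the median was 0.04. By limma 0 were called and 0 had an unadjusted p under 0.05. The largest differences were -0.48 at Xiap, a caspase inhibitor, -0.27 at Casp9, the initiator caspase, and 0.24 at Apaf1, the scaffold on which caspase 9 is activated. Without young replicate 3 the list divided into 9 higher and 11 lower with a median of -0.03, and Xiap was at -0.30. By limma 0 were then called and 1 had an unadjusted p under 0.05, Cflar, an inhibitor of caspase 8, which went from 0.19 to 0.44 (adjusted p = 0.811). Genes that regulate the members' stability or activity, such as the Mcl1 ubiquitin ligase Huwe1, divided into 7 higher and 7 lower of 14 tested, with a median of 0.02, and into 6 higher and 8 lower with a median of -0.09 without young replicate 3. By limma 0 were called and 0 had an unadjusted p under 0.05. The largest difference was -0.57 at Usp9x, which removes ubiquitin from Mcl1.

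Markers of several cell types differed between the ages on the same arrays. All 10 megakaryocyte markers had higher levels in old CMPs (median difference 1.21), and Gp9 was called (limma adjusted p = 0.0327). The Gp9 call was lost whichever of the 8 arrays was left out, with adjusted p between 0.0738 and 0.153 by limma. Their summed level, in multiples of the 75th percentile, was 74.0 to 155 on the young and 222 to 306 on the old arrays. All 8 granulocyte and monocyte markers were lower with a median of -0.58, of which 0 were called and 5 had an unadjusted limma p under 0.05, and their sum was 983 to 1339 on the young and 796 to 862 on the old arrays. Neither sum overlapped between the ages. All 6 mast cell and basophil markers were higher, 4 of them at an unadjusted limma p under 0.05, with sums of 13.6 to 17.0 and 21.2 to 55.7. Gzmb was the largest part of these sums, and its ages overlapped (2.87 to 3.44 in young and 3.36 to 5.51 in old CMPs). The smallest differences of the 6 were 0.31 at Mcpt8 and 0.34 at Prss34. Fcer1a was called (limma adjusted p = 0.0293), and this call remained without young replicate 5 or old replicate 2 and was lost without any of the other 6 arrays. On the old arrays 4 of 6 tested stem cell markers were higher, with sums of 13 to 24.8 on the young and 39.1 to 45.6 on the old arrays. Of 8 tested erythroid markers 3 were higher and 5 lower, against 6 higher and 2 lower without young replicate 3. Of 5 tested lymphoid markers all were lower and 0 were called, with 1 higher and 4 lower without young replicate 3, and Pax5 and Ebf1 were above background on no array. The part of these cells in the values of Bcl2l1, Bcl2l11 or the A1 genes was not tested, and in sorted bulk samples fewer cells of a type and less RNA per cell cannot be told apart.

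**Figure D5:**
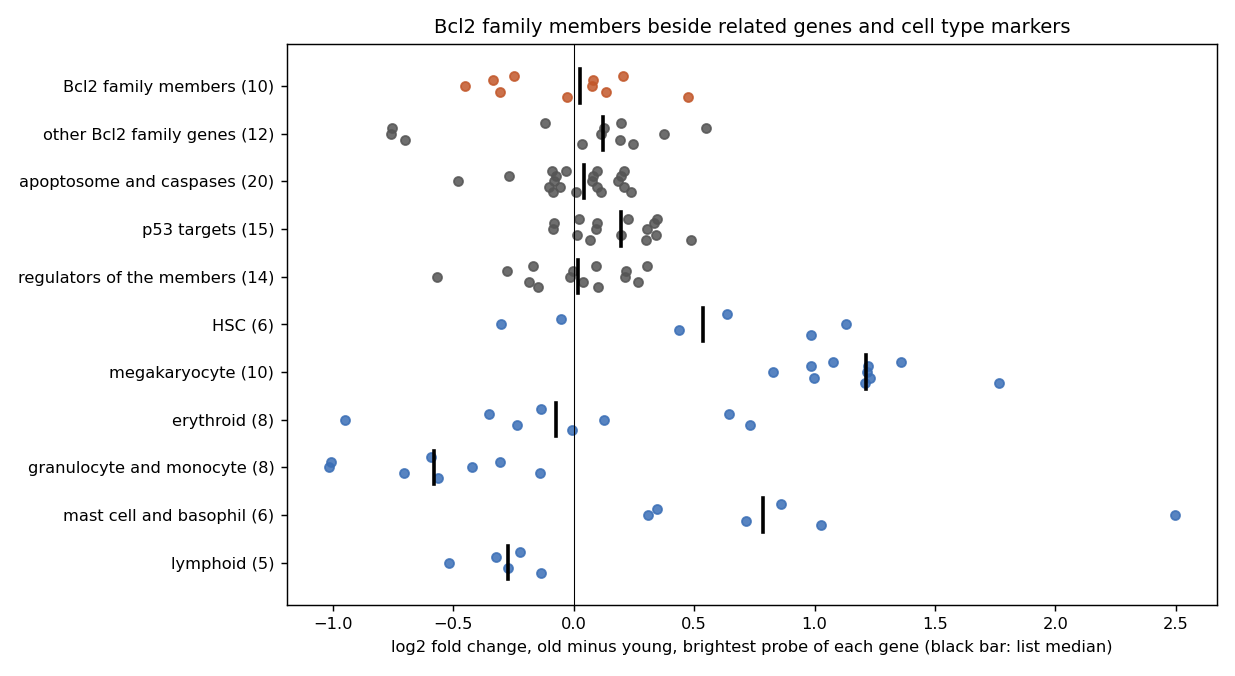
Each point is a gene at its brightest tested probe, placed by its log2 fold change (old minus young) on the x axis, with black bars for list medians and the number of tested genes in brackets. The Bcl2 family members lie around 0 (median 0.02), as do the apoptosome and caspase genes (0.04), whereas the megakaryocyte markers lie to the right (1.21) and the granulocyte and monocyte markers to the left (-0.58).

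Across the 8 arrays the genes whose levels were most like those of Bcl2l1, at its brighter probe, were Pigy (Pearson r = 0.984), Nfe2 (0.975), Slc24a3 (0.975), Enc1 (0.974) and Zbtb3 (0.974), out of 23134 genes compared. Nfe2 encodes a transcription factor of megakaryocytes and erythroid cells. These are the highest of many correlations over few arrays that share the difference in age, and they are given as a description.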

How the data were processed

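The authors labelled RNA of each sample with 1 dye, hybridized it to Agilent mouse arrays (62976 spots each) and extracted the signals with Agilent Feature Extraction 10.7.3.1. The deposited scanner files hold, per spot, a background-corrected intensity on a linear scale with the software's flags. A matrix of log2 values for all arrays, also deposited, had been shifted to the 75th percentile and centred per gene and served as an alternative.

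Of the 59305 non-control spots, those with a non-uniformity or population outlier flag were dropped. The log2 intensity minus the array's 75th percentile was averaged over the spots of a probe. A probe counted as well above background where at least 50% of its spots did, and was tested if this held on at least 4 of 8 arrays (33479 probes, 23161 gene names). No spot was saturated. The ages were compared with limma 3.58.1 (lmFit, eBayes) in R 4.3.3 with the package data.table, version 1.17.8, with Benjamini-Hochberg adjustment over all tested probes, after a check on simulated data. The precision is limited by the number of arrays. A gene was represented by its tested probe with the highest mean. All 10 member symbols matched RefSeq. The replicate numbers 3, 4 and 5 occur in both ages, but deviations of same-numbered arrays from their group means correlated at -0.09, -0.14 and 0.15, so the numbers were not taken as pairs.

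The genes named were all members with every probe and, from each list, genes called, at an unadjusted p under 0.05 or with the largest differences, at most 5 per list. Names given for young replicate 3 were chosen after their values were seen. The members and lists were chosen with earlier results of these data known. Alternatives were normexp background correction (offset 50), quantile or median scaling, other filters, averaged probes and no minimum fold. Other fits were Welch's t-test and limma with trend and robust variances, with array weights, or with the replicate number or slide as a block. Single slides, leaving out arrays and the series table were also run. The study's methods name Welch's t-test for unpaired samples in general but state no test for the arrays.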

Additional observations from a re-analysis of the deposited data

Results flagged for a closer look

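In 28 groups of 4 arrays (14 probes at each age), the gap between the extreme array and its neighbour was compared with the whole range of the group. It passed Dixon's 95% critical value in 2 groups, and chance alone marks about 1 group in 20. At the dimmer Mcl1 probe, old replicate 2 (3.06) stood above the other old arrays (2.60 to 2.63), with a gap of 0.945 of the range. The same array was also the highest at the brighter Mcl1 probe. At the dimmer Bcl2l11 probe, old replicate 4 (-2.89) stood above the other old arrays (-3.64 to -3.52), with a gap of 0.841 of the range. No group of young arrays passed, so young replicate 3 was not flagged at any member probe. As the highest young array its gap was 0.776 of the range at the brighter Bcl2l11 probe, 0.731 at Pmaip1, 0.519 at Bcl2 and 0.494 at Bbc3. As the lowest young array its gap was 0.781 at Bid, 0.418 at the brighter Bcl2l1 probe and 0.4025 at Bak1.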

How the results depend on the processing

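No member was called under any alternative run. Bcl2, Bcl2l1, Bcl2l11 and Bid kept their direction in all alternatives, Bcl2l1 between 0.18 (slide 2 alone) and 0.76 (slide 1 alone). Bcl2l1 had an unadjusted p under 0.05, by limma or Welch's t-test, in 19 of 41 tested settings. These settings include the main fit, others that repeat its p (no minimum fold, saturated spots left out) and the dimmer probe. Most share arrays, so the count is not one of separate tests. The number of members at an unadjusted p under 0.05 went from 2 to 1 with normexp background correction, with no filter on dim probes and with the mean of a gene's probes, and to 0 with the replicate block. The number of probes called, 64, was 104 with normexp correction and 28 with no filter. It was 40 and 32 with the filter at all 8 arrays or at least 1 array. It was 101 with trend and robust variances, 189 with array weights and 39 with slide as a block. The replicate block (replicates 3, 4 and 5) gave 13, and Welch's t-test after Benjamini-Hochberg adjustment gave 0. Scaling to each array's median moved the median difference of all probes from -0.02 to 0.10. Bbc3 changed direction with normexp correction (0.036), median scaling (0.090), array weights (0.077) and the series table (0.0022), and Bax with array weights (-0.011). On single slides, 5 of 10 members had the same sign on both at the brightest probe. Pmaip1 was -1.09 on slide 1 and 0.19 on slide 2, Bad 0.27 and -0.11, and Bax 0.20 and -0.05. Bbc3 was 0.05 and -0.11, and Bak1 0.46 and -0.19. Leaving out 1 array, or 1 of each age, gave 10 to 43 probes called, 0 to 2 members at an unadjusted p under 0.05 and a median over members of -0.17 to 0.15. Such omissions turned the sign of Bbc3 (-0.27 to 0.30), Pmaip1 (-0.81 to 0.12), Bad (-0.046 to 0.20), Bax (-0.20 to 0.32), Bak1 (-0.16 to 0.38) and Mcl1 (-0.0048 to 0.33). The cause of these shifts was not tested, beyond the fewer arrays or probes that some settings hold by construction. Bcl2l11 at its brighter probe went from -0.34 to -0.15 with normexp correction, so its size depends on the background correction.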
